A study of Mus musculus with 6 samples.

Results

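KPC850 is 1 of 6 cell lines sequenced in this study, all from pancreatic ductal adenocarcinoma (PDAC) of the mouse, and it was set against the other 5, named KPC142, KPC180, KPC469, KPC490 and KPC630. Genes were taken for description when they lay on an autosome, reached at least 10 CPM in any line and stood, in KPC850, at least 4-fold above the highest or at least 4-fold below the lowest of the other 5 lines. CPM are counts scaled to a library's total after TMM adjustment, which evens out differences in RNA composition. Of 9875 such autosomal genes, 45 met this rule: 18 above (0.182% of the genes tested) and 27 below (0.273%). All 6 lines carry the same labels, and KPC, a name in wide use for mice with engineered PDAC, is given as the strain. The labels give no allele, sex, age, passage, treatment or clone, and no degree of T-cell infiltration for any line, although the series was made to compare lines that draw many or few CD8+ T cells. Each line has 1 library. No test was therefore possible, and every difference here is one between libraries. Ratios of single genes carry a 95% interval that covers counting error only.

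The genes above and below point to several well-studied systems. Conjugating enzymes attach sulfate, glucuronic acid or glutathione to drugs, bile acids and reactive lipids, and transporters then export the products. Securin, the product of Pttg1, binds and holds back separase, the protease that cuts cohesin to let sister chromatids part at anaphase. Nidogens join laminin to collagen IV in basement membranes, and tight junction plaque proteins tie claudins and occludin to the actin skeleton.

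Library totals were 17102700 counts in KPC850 and 16471558 to 18701274 in the other 5 lines. One count was worth 0.0585 CPM in KPC850 before TMM adjustment. The KPC850 library carried the markers of a ductal epithelial line. Krt8 and Krt19, keratins of simple epithelia, were abundant: Krt8 had 4177 CPM in KPC850, against 843 to 3343 in the others, and Krt19 had 2655 CPM in KPC850, against 838 to 2749.8 in the others. E-cadherin (Cdh1) was at 767 CPM in KPC850, while the epithelial markers Epcam and Cldn4 were near 0 there, at 0.699 and 0.233 CPM. Markers of T and NK cells (17 genes, summed level 1.86 CPM in KPC850 and 0.327 to 2.34 in the others), B cells (7 genes, 0 and 0 to 0.163) and erythroid cells (7 genes, 0.350 and 0.232 to 0.668) were near 0. Cd3e, Adgre1, Pecam1 and Col3a1 had 0 counts in KPC850, but some marker lists held an expressed gene. Hepatocyte markers summed to 716 CPM in KPC850 (Apob 713) and 26.1 to 2059 in the others. In the same order, neural and glial markers were at 82.6 CPM (Mbp 73.3) and 48.2 to 138. Endocrine markers were at 48.0 CPM (Ptprn 47.5) and 9.89 to 164. Endothelial markers were at 37.2 CPM (Flt1 36.1) and 4.03 to 44.7. Fibroblast and pericyte markers were at 11.2 CPM (Cspg4 9.09) and 1.51 to 25.8. Summed myeloid markers were at 111 CPM in KPC850 and 18.6 to 162 in the others, nearly all of it from Mrc1 in KPC850 (108 CPM), with 11 of 16 markers at 0 counts.

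By the same rule, genes above and below were counted in each line. KPC850 had 18 above (0.182%) and 27 below (0.273%), against 6 (0.0608%) and 65 (0.658%) in KPC142, 22 (0.223%) and 53 (0.537%) in KPC180, and 78 (0.79%) and 73 (0.739%) in KPC469. KPC490 had 20 (0.203%) and 10 (0.101%), and KPC630 had 16 (0.162%) and 8 (0.081%). KPC850 was thus neither the most nor the least set apart of the lines. The bound is set by the nearest of 5 libraries, so a single one can hide genes. Without KPC142 the counts were 29 above and 54 below, without KPC180 there were 30 above, and without KPC630 there were 28 above. At 2-fold in place of 4-fold, 72 genes stood above (0.729%) and 82 below (0.83%). KPC850 was the highest of the 6 lines in 1524 genes (15.4%) and the lowest in 1455 (14.7%), and these shares are the background for the gene lists below.

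**Figure D1:**
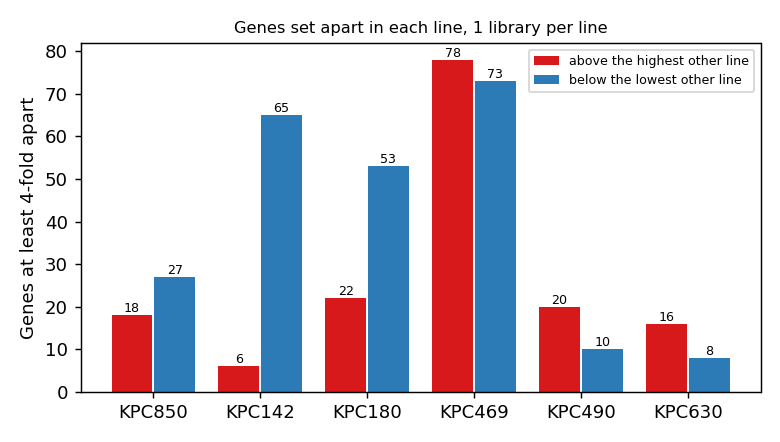
Number of autosomal genes at least 4-fold above the highest other line (red) or below the lowest other line (blue) in each line, each from 1 library and out of 9875 genes tested. KPC850, at the left, has 18 and 27, between KPC469 with 78 and 73 and KPC630 with 16 and 8.

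The 18 genes above ranged from nearly absent to well expressed in the other lines. Their ratio to the next line ran from 4.04 to 11.8, with a median of 4.70, and in 10 of the 18 no other line reached 10 CPM. All 18 were protein-coding, and their level in KPC850 ran from 11.7 to 236 CPM. The next line was KPC630 for 6 genes, KPC469 for 4, KPC142 and KPC180 for 3 each and KPC490 for 2. For 8 of the 18 the whole counting interval of the ratio lay above 4. The 27 genes below were more extreme: 20 of them were under 1 CPM in KPC850 and 18 had fewer than 10 counts. Their ratio, the lowest other line over KPC850 with a floor of 3 counts, had a median of 9.28.

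**Figure D2:**
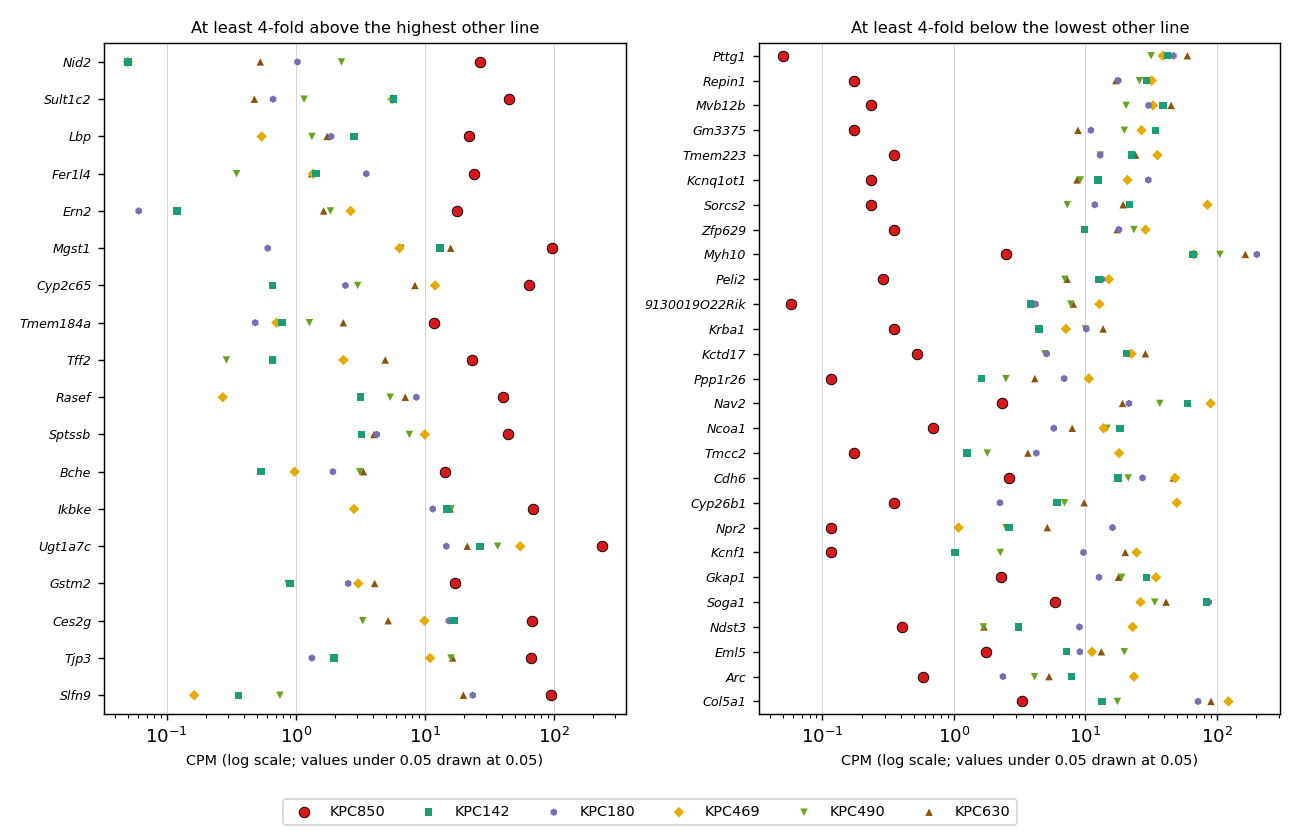
CPM in each of the 6 lines, on a log scale, for the 18 genes at least 4-fold above (left) and the 27 genes at least 4-fold below (right) the other 5 lines. KPC850 is the large red circle, and values under 0.05 CPM are drawn at 0.05. On the left the other lines mostly lie under 20 CPM, and on the right most red circles lie under 1 CPM.

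Of the 18 genes above, Sult1c2, Mgst1, Gstm2 and Ugt1a7c were on the list of xenobiotic conjugation and detoxification. Cyp2c65, Ces2g and Bche, on no list, are enzymes too and are placed beside them after their values were seen. Sult1c2 (ENSMUSG00000023122), a cytosolic sulfotransferase, had 45.1 CPM in KPC850, against 5.705 in KPC142, 5.61 in KPC469, 1.16 in KPC490, 0.668 in KPC180 and 0.478 in KPC630. The ratio to KPC142 was 7.904 (6.38 to 9.89), and KPC142 and KPC469 were the only other lines above 2 CPM. Mgst1, a membrane-bound glutathione transferase that also reduces lipid peroxides, had 97.05 CPM in KPC850, against 15.9 in KPC630, 13.1 in KPC142, 6.56 in KPC490, 6.37 in KPC469 and 0.607 in KPC180. KPC630 was the next line, at a ratio of 6.11 (5.397 to 6.93), and KPC180 was almost without the transcript. Gstm2, a soluble glutathione transferase of the mu class, had 17.1 CPM in KPC850, against 4.09 in KPC630, 3.05 in KPC469, 2.55 in KPC180, 0.901 in KPC142 and 0.871 in KPC490, a ratio of 4.19 (3.25 to 5.45) to KPC630.

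Ugt1a7c, which transfers glucuronic acid and lies in a cluster whose genes share their last exons, was the most abundant of the 18. It had 236 CPM in KPC850, against 55.01 in KPC469, 36.8 in KPC490, 26.8 in KPC142, 21.4 in KPC630 and 14.7 in KPC180, a ratio of 4.297 (4.01 to 4.61) to KPC469. Its expected counts were fractional in all 6 lines and it overlaps Ugt1a6a and Ugt1a6b on the same strand, so its own level is uncertain. Cyp2c65, a cytochrome P450 that oxidises lipids and drugs, had 64.4 CPM in KPC850, against 12.04 in KPC469, 8.397 in KPC630, 3.02 in KPC490, 2.43 in KPC180 and 0.661 in KPC142. The ratio to KPC469 was 5.35 (4.62 to 6.21). Ces2g, a carboxylesterase, had 68.4 CPM in KPC850, against 16.8 in KPC142, 15.4 in KPC180, 9.97 in KPC469, 5.21 in KPC630 and 3.31 in KPC490, and KPC142 and KPC180 came closest, with a ratio of 4.07 (3.57 to 4.65) to KPC142. Cyp2c65, Ces2g and Gstm2 belong to multigene families, but none of their counts was fractional in any line. Bche, the butyrylcholinesterase gene, which splits choline esters, had 14.4 CPM in KPC850, against 3.35 in KPC630, 3.14 in KPC490, 1.94 in KPC180, 0.9803 in KPC469 and 0.5404 in KPC142, a ratio of 4.31 (3.26 to 5.78).

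The wider group of such enzymes was often highest in KPC850. Of 46 listed genes of xenobiotic conjugation and detoxification, 34 reached 10 CPM in a line. Among these 34, KPC850 was the highest of the 6 lines in 19 and the lowest in 0, a count that includes the 4 genes chosen for being 4-fold above. Among the other 30, KPC850 was highest in 15, against 15.4% of all genes tested, and their median log2 difference from the median of the other 5 lines was 0.99. Some of the 30 reached 10 CPM in KPC850 alone, as Sult1d1 did (21.6 CPM, at most 8.99 in the others). For such genes the filter fixed the rank, and their number was not counted. The same limit holds for the other lists, and the 15.4% was taken with the same filter. In the other lines 1 to 6 of the 34 genes were highest: 6 in KPC469, 5 in KPC142, 2 in KPC490 and 1 each in KPC180 and KPC630. With all 34 genes that median was 1.05, against 0.01 over all genes tested, and 32 of the 34 differences were above 0. Summed over the 34 genes the level was 4886 CPM in KPC850 and 2311 to 3344 in the others. With only the 30 members whose expected counts were whole in every line, KPC850 was highest in 16.

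Of the 34 genes, 4 passed 4-fold above (Sult1c2, Ugt1a7c, Gstm2 and Mgst1) and 7 passed 2-fold. Cbr3, a carbonyl reductase, had 47.9 CPM in KPC850, against 21.6 in KPC630, 6.05 in KPC469, 5.81 in KPC490, 3.36 in KPC142 and 2.55 in KPC180. Sult1d1, another sulfotransferase, had 21.6 CPM in KPC850, against 8.99 in KPC469, 4.297 in KPC490, 3.19 in KPC630, 3.18 in KPC142 and 0.243 in KPC180. Both were high in KPC850 with 1 other line nearer than the rest. Abcc3, which exports conjugates across the basolateral membrane, had 335 CPM in KPC850, against 254 in KPC630, 127 in KPC490, 70.2 in KPC180, 68.6 in KPC469 and 54.04 in KPC142. Gsta4, the transferase that conjugates the lipid aldehyde 4-hydroxynonenal, had 566 CPM in KPC850, against 376 in KPC630, 363 in KPC490, 139.7 in KPC469, 104 in KPC180 and 81.4 in KPC142. KPC850 was highest for both, though KPC490 or KPC630 came within 2-fold. The exceptions included Gstm5, with 27.96 CPM in KPC850, against 16.7 to 48.7 in the others, and Gsto1, which was higher in KPC469 (994 CPM) than in KPC850 (729 CPM).

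**Figure D3:**
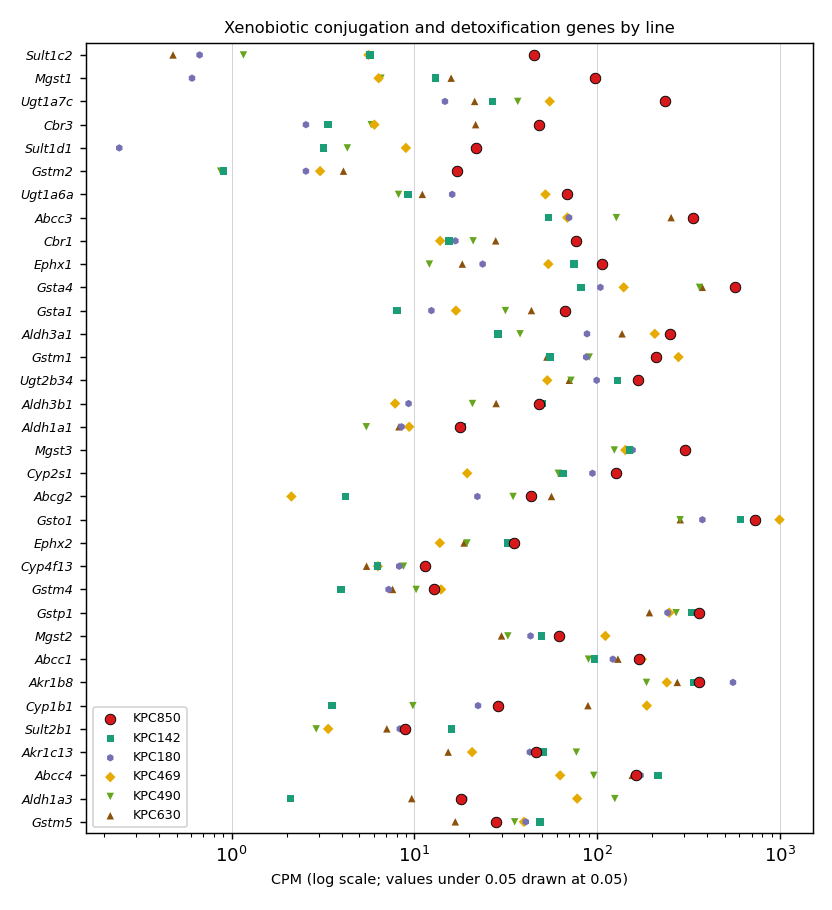
CPM in each of the 6 lines, on a log scale, for the 34 genes of xenobiotic conjugation and detoxification that reached 10 CPM in a line, ordered by the log2 difference of KPC850 from the median of the other 5 lines. The red circle of KPC850 is the rightmost point in 19 rows and the leftmost in 0.

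A second list of oxidative defence, the targets of the transcription factor NRF2, stood apart less: KPC850 was highest in 4 of 20 genes and lowest in 2, and the list median was 0.25. Slc7a11, the cystine importer, had 276 CPM in KPC850, against 360.4 in KPC469, 198 in KPC142, 109.5 in KPC180, 106 in KPC490 and 70.9 in KPC630, with KPC469 above KPC850. The promoter of Sult1c2 and that of Ugt1a7c, which had the largest ratio and the largest level among the listed enzymes past 4-fold, are shown for their few CG pairs, marked in capitals, in the 250 bases before the RefSeq start on build GRCm38.p6:
Sult1c2 (chr17:53845959-53846208, strand -): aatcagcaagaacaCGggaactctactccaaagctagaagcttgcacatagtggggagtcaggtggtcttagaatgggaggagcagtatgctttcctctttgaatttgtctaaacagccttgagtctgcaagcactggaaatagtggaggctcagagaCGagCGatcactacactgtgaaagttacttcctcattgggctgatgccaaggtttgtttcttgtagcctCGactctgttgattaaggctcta
Ugt1a7c (chr1:88094751-88095000, strand +): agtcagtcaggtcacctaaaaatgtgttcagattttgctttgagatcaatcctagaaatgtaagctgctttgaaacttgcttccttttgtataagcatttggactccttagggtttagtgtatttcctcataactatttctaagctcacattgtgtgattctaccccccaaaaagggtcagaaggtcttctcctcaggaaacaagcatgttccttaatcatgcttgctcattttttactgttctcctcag
The Sult1c2 window held 4 CG pairs and the Ugt1a7c window 0. Of the 18 genes above, 14 had a promoter in the RefSeq table, and 2 of these 14 (Mgst1 and Rasef) resembled a CpG island, taken as at least 50% G and C and an observed over expected CG ratio of at least 0.6 in a window of 250 bases before and 50 after the start. Over all 7826 tested genes with a promoter the share was 75.8%. For the 28 tested genes of the xenobiotic list with a promoter, Sult1c2, Ugt1a7c, Gstm2 and Mgst1 among them, it was 25%. For the genes above in the other lines the shares were 64.3% of 14 in KPC630, 60% of 10 in KPC490, 58.3% of 12 in KPC180, 47.5% of 59 in KPC469 and 25% of 4 in KPC142. The motif TGACNNNGC, the core of the antioxidant response element, searched on both strands, occurred in 4 of the 14 promoters (Mgst1, Rasef, Tmem184a and Cyp2c65) and in 15.1% of all. It occurred in 3 of the 28 xenobiotic promoters (10.7%). Among genes above in the other lines its share ran from 0% of 10 in KPC490 to 50% of 4 in KPC142. The motif GCGTG of the aryl hydrocarbon receptor, also on both strands, occurred in 1 of the 14 (Rasef) and in 54.9% of all. In the 28 xenobiotic promoters its share was 39.3%.

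Lbp, Tff2 and Ern2 were also above, each as the 1 gene past 4-fold of its list. Lbp (ENSMUSG00000016024), the secreted protein that hands bacterial lipopolysaccharide to CD14, had 22.1 CPM in KPC850, against 2.82 in KPC142, 1.88 in KPC180, 1.75 in KPC630, 1.34 in KPC490 and 0.545 in KPC469. The ratio to KPC142 was 7.82 (5.77 to 10.8). Tff2, a trefoil peptide of gastric and duodenal mucus, had 23.4 CPM in KPC850, against 4.94 in KPC630, 2.34 in KPC469, 0.668 in KPC180, 0.661 in KPC142 and 0.2903 in KPC490, a ratio of 4.74 (3.77 to 6.003) to KPC630 and 9.9998 without that line. Ern2, an endoplasmic reticulum stress sensor found mainly in mucus-secreting epithelia, had 17.7 CPM in KPC850, against 2.67 in KPC469, 1.86 in KPC490, 1.65 in KPC630, 0.1201 in KPC142 and 0.0607 in KPC180, and KPC142 and KPC180 had 2 and 1 counts. Its ratio to KPC469 was 6.61 (4.88 to 9.14). Only Ern2 of the 23 listed genes of the unfolded protein response passed 4-fold, and the list median was -0.12.

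Products of gastric-type and classical PDAC epithelium were uneven in KPC850. Of 14 such genes at 10 CPM, KPC850 was highest in 6 and lowest in 0, with a list median of 1.02. Muc1, a membrane mucin, had 264 CPM in KPC850, against 115 in KPC180, 64.7 in KPC630, 43.5 in KPC490, 40.5 in KPC469 and 20.2 in KPC142. Ceacam1, an adhesion molecule, had 21.4 CPM in KPC850, against 65.96 in KPC490, 18.9 in KPC630, 3.402 in KPC180, 3.32 in KPC469 and 1.56 in KPC142, with KPC490 well above KPC850. Cldn18, the claudin of gastric epithelium, ran the other way: it had 1.75 CPM in KPC850, against 505 in KPC180, 456 in KPC630, 408 in KPC490, 360.4 in KPC469 and 1.32 in KPC142. KPC850 and KPC142 were both nearly without it, so Cldn18 does not count among the 27 genes below. Of 37 listed genes of lipopolysaccharide sensing and the acute phase, 13 reached 10 CPM. KPC850 was highest in 5 of these and KPC469 in 5, with a summed level of 595 CPM in KPC850 and 732 in KPC469. Tlr4, the lipopolysaccharide receptor, had 43.6 CPM in KPC850, against 4.49 to 30.2 in the others.

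Epithelial genes were often highest in KPC850, with clear exceptions. Tjp3 (ENSMUSG00000034917), which encodes the plaque protein ZO-3, had 66.99 CPM in KPC850, against 16.5 in KPC630, 15.97 in KPC490, 11.001 in KPC469, 1.98 in KPC142 and 1.34 in KPC180, a ratio of 4.07 (3.58 to 4.62) to KPC630. Of 38 listed epithelial genes, 25 reached 10 CPM in a line, and Tjp3 alone of these passed 4-fold. KPC850 was the highest line for 14 of the 25 and the lowest for 1, with a list median of 0.63. Counts in the other lines were 5 in KPC630, 3 in KPC180 and 1 each in KPC142, KPC469 and KPC490. Ehf, an epithelial transcription factor, had 70.8 CPM in KPC850, against 33.2 in KPC469, 31.9 in KPC490, 10.6 in KPC630, 1.26 in KPC142 and 0.425 in KPC180. The desmosome gene Dsp had 515 CPM in KPC850, against 77.6 to 237 in the others. Esrp1 and Ap1m2, of the same list, had 0 counts in KPC850 and stayed under 10 CPM in every line. Epcam had 0.699 CPM in KPC850, against 0.243 to 10.5 in the others, and Cldn4 had 0.233 CPM in KPC850, against 0.163 to 3.35 in the others. Cldn3 had 3.903 CPM in KPC850, against 90.6 in KPC630, 73.7 in KPC490, 42.7 in KPC142, 0.599 in KPC469 and 0 in KPC180, and Spint1, a protease inhibitor, was lowest in KPC850 with 0.757 CPM in KPC850, against 1.56 to 22.4 in the others.

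Among 15 mesenchymal genes at 10 CPM, KPC850 was highest in 0 and lowest in 4, with a list median of -0.40. Fibronectin (Fn1) had 279 CPM in KPC850, against 286 to 2566 in the others, with KPC142 close to KPC850 at 286 CPM. Twist2, a transcription factor of mesenchyme, had 0.175 CPM in KPC850, against 11.7 in KPC490, 8.66 in KPC469, 5.69 in KPC630, 2.702 in KPC142 and 0.364 in KPC180. Vimentin (Vim) was not low, with 2099.9 CPM in KPC850, against 1464 to 2896 in the others, and N-cadherin (Cdh2) had 109 CPM in KPC850, against 0.6005 to 157 in the others. Of the 8 keratins at 10 CPM, KPC850 was highest in 4, Krt14 among them with 37.3 CPM in KPC850, against 20.2 in KPC630, 6.59 in KPC469, 3.48 in KPC142, 2.03 in KPC490 and 0.729 in KPC180.

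Basement membrane and matrix genes held both the largest ratio among the genes above and a member below. Nid2 (ENSMUSG00000021806), which encodes nidogen-2, had 26.6 CPM in KPC850, against 2.26 in KPC490, 1.03 in KPC180, 0.531 in KPC630, 0 in KPC142 and 0 in KPC469. KPC142 and KPC469 had 0 counts, which allows up to 3 counts each. The ratio to KPC490 was 11.8 (8.47 to 16.7), and without KPC490 it was 25.8. Nid2 overlaps the gene Rtraf on the other strand and its counts were fractional in 2 lines. Of 16 basement membrane genes at 10 CPM, Nid2 alone passed 2-fold, and its relative Nid1 had 341 CPM in KPC850, against 101 to 431 in the others. Col5a1, a chain of the fibril-forming collagen V, was below, with 3.32 CPM in KPC850, against 123 in KPC469, 90.8 in KPC630, 72.3 in KPC180, 17.6 in KPC490 and 13.5 in KPC142 and a ratio of 4.05 (3.02 to 5.52) to KPC142. Thbs1, the matricellular thrombospondin-1, had 18.99 CPM in KPC850, against 36.5 to 633 in the others, and of 24 matricellular genes KPC850 was highest in 0 and lowest in 3. Ndst3, an enzyme that modifies heparan sulfate chains, was below too, with 0.408 CPM in KPC850, against 22.98 in KPC469, 9.05 in KPC180, 3.12 in KPC142, 1.701 in KPC630 and 1.68 in KPC490. Its ratio to KPC490 was 4.13 (1.77 to 11.2).

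Of the remaining genes above, Ikbke and Slfn9 belong to innate immune families. Ikbke, the kinase IKK-epsilon that activates interferon regulatory factors, had 69.1 CPM in KPC850, against 16.03 in KPC490, 15.8 in KPC630, 14.9 in KPC142, 11.5 in KPC180 and 2.83 in KPC469. The ratio to KPC490 was 4.31 (3.78 to 4.93), and KPC142 and KPC630 stood close to KPC490. Slfn9, of the Schlafen family, had 95.1 CPM in KPC850, against 23.6 in KPC180, 19.9 in KPC630, 0.755 in KPC490, 0.3603 in KPC142 and 0.163 in KPC469, so KPC180 and KPC630 also expressed it and the ratio to KPC180 was 4.04 (3.61 to 4.52). Of 15 genes of the type I interferon response at 10 CPM, KPC850 was highest in 7 and lowest in 1, and 0 passed 2-fold. Aim2, a sensor of cytosolic DNA, had 85.2 CPM in KPC850, against 46.9 in KPC630, 4.14 in KPC142, 3.08 in KPC490, 0.364 in KPC180 and 0 in KPC469, so KPC850 and KPC630 stood above the other lines. Cxcl5, a neutrophil-attracting chemokine, had 195 CPM in KPC850, against 55.3 in KPC490, 53.7 in KPC630, 19.7 in KPC469, 15.9 in KPC142 and 2.25 in KPC180, short of 4-fold. Of the 4 chemokines of T cells and monocytes that reached 10 CPM, KPC850 was highest in 0 and lowest in 0.

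Sptssb, a subunit of the enzyme that starts sphingolipid synthesis, had 43.98 CPM in KPC850, against 10.02 in KPC469, 7.61 in KPC490, 4.25 in KPC180, 4.04 in KPC630 and 3.24 in KPC142. The ratio to KPC469 was 4.39 (3.73 to 5.18). Sptssb and Bche follow each other in the order of tested genes on chromosome 3, with 0 tested genes between them. Genes not tested may lie between them, and their distance was not measured. Rasef, a Rab GTPase, had 40.2 CPM in KPC850, against 8.63 in KPC180, 7.07 in KPC630, 5.4003 in KPC490, 3.18 in KPC142 and 0.272 in KPC469, a ratio of 4.66 (3.88 to 5.62). Fer1l4, of the ferlin family, had 23.9 CPM in KPC850, against 3.52 in KPC180, 1.44 in KPC142, 1.36 in KPC469, 1.33 in KPC630 and 0.348 in KPC490. Its ratio was 6.796 (5.15 to 9.11) to KPC180 and 16.6 without that line. Tmem184a had 11.7 CPM in KPC850, against 2.34 in KPC630, 1.28 in KPC490, 0.781 in KPC142, 0.708 in KPC469 and 0.486 in KPC180, a ratio of 5.01 (3.598 to 7.11) to KPC630 and 9.17 without it. The genes just outside the threshold were Aldh1l1 and Atp8b1, each at a ratio of 3.90, and Sord at 3.89. The genes just inside were Slfn9 at 4.04 and Ces2g and Tjp3, each at 4.07.

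Genes of fatty acid synthesis were also often highest in KPC850, though by little. KPC850 was highest in 13 of 25 such genes at 10 CPM and lowest in 2, with a list median of 0.53, and 0 genes passed 2-fold. Fatty acid synthase (Fasn) had 933 CPM in KPC850, against 788 in KPC490, 698 in KPC469, 646 in KPC630, 621 in KPC180 and 540.2 in KPC142. The desaturase genes Fads1 and Fads2 had 201 CPM in KPC850, against 82.1 to 173 in the others, and 366 CPM in KPC850, against 40.2 to 274 in the others. Elovl7, which lengthens fatty acids, had 65.5 CPM in KPC850, against 20.1 to 43.8 in the others. For cholesterol synthesis KPC850 was highest in 5 of 21 genes and lowest in 0. The median of that list was 0.46, but 0.760 without KPC180 and 0.777 without KPC490.

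Among the genes below, Pttg1 (ENSMUSG00000020415) had no detectable transcript in KPC850. It had 0 CPM in KPC850, against 59.9 in KPC630, 47.02 in KPC180, 42.2 in KPC142, 38.9 in KPC469 and 31.8 in KPC490. The counts were 0 in KPC850 and 1128 in KPC630, 774 in KPC180, 715 in KPC469, 702 in KPC142 and 547 in KPC490. A count of 0 allows up to 3 counts, or 0.175 CPM, and with KPC850 set at that floor its level was at least 181.8-fold lower than in KPC490. The counting interval of the ratio, which also takes in the error of KPC490, began at 147. All of the deposited counts of this gene were whole numbers. The genes on either side of Pttg1 were expressed: Ccng1 had 94.5 CPM in KPC850, against 59.4 to 98.3 in the others, and Slu7 had 58.02 CPM in KPC850, against 43.8 to 68.5 in the others.

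The rest of the anaphase machinery lay close to the other lines. Of 39 listed genes of securin, separase, cohesin and the spindle checkpoint, all reached 10 CPM, and Pttg1 was the only 1 past 2-fold. Over the other 38 the log2 difference from the median of the other lines ran from -0.60 to 0.30, with a median of -0.14. Separase (Espl1) had 77.9 CPM in KPC850, against 131 in KPC630, 116 in KPC142, 89.3 in KPC180, 68.9 in KPC490 and 49.5 in KPC469, within the spread of the lines. Cyclin B1 (Ccnb1) had 199 CPM in KPC850, against 255 to 274 in the others, and Cdk1 had 119 CPM in KPC850, against 123 to 218 in the others. KPC850 was highest in 4 of the 39 and lowest in 6. In 37 genes of proliferation KPC850 was highest in 0 and lowest in 11, against 14.7% of all genes. The list median was -0.19, and 0 genes passed 2-fold. Other lines were lowest nearly as often: KPC469 in 9, KPC142 and KPC490 in 8 each, but KPC180 in 1 and KPC630 in 0. Summed over the 37 genes the level was 7386 CPM in KPC850 and 6900 to 9673 in the others. Mki67 had 503 CPM in KPC850, against 756 in KPC630, 673 in KPC142, 574 in KPC180, 543 in KPC490 and 525 in KPC469. Without KPC469, KPC850 was the lowest of the remaining lines in 17 of the 37. KPC630 was highest in 21 of these genes, and its part in the order of the lines was not tested.

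Myh10 (ENSMUSG00000020900), the heavy chain of non-muscle myosin IIB, was below from a high level elsewhere. It had 2.505 CPM in KPC850, against 202 in KPC180, 166 in KPC630, 106 in KPC490, 67.1 in KPC469 and 66.1 in KPC142, a ratio of 26.4 (19.4 to 36.6) for KPC142 over KPC850. The Pttg1 and Myh10 promoters are shown because both genes were abundant in every other line. They also hold more CG pairs than those of Sult1c2 and Ugt1a7c (RefSeq, GRCm38.p6, 250 bases before the start, CG pairs in capitals):
Pttg1 (chr11:43425982-43426231, strand -): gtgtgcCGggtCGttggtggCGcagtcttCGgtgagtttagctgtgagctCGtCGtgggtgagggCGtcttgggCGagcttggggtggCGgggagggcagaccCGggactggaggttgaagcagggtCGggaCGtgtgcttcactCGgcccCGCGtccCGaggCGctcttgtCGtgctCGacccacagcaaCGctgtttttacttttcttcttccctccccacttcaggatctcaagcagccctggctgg
Myh10 (chr11:68691665-68691914, strand +): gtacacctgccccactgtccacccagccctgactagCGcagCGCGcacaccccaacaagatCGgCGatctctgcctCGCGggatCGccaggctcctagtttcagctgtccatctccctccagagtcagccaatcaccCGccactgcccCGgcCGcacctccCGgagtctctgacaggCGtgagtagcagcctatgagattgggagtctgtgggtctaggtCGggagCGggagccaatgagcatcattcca
The Pttg1 window held 20 CG pairs and the Myh10 window 15. With the 50 bases after the start included they held 20 and 18. In that wider window the median was 22 over all tested genes with a promoter and 13 over the genes below. Of 19 genes below with a promoter in the table, 9 resembled a CpG island: Pttg1, Myh10, Ncoa1, Peli2, Col5a1, Ppp1r26, Tmcc2, Krba1 and Eml5. That is 47.4%, against 75.8% of all genes tested, and the genes below in the other lines gave 0 of 5 in KPC630, 33.3% in KPC490, 36.5% in KPC469, 53.3% in KPC180 and 62.2% in KPC142. DNA methylation was not measured.

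Several nuclear and trafficking genes were close to silent in KPC850 alone. Repin1, a zinc finger protein, had 0.175 CPM in KPC850, against 32.1 in KPC469, 29.2 in KPC142, 25.9 in KPC490, 17.9 in KPC180 and 17.2 in KPC630. Its 3 counts in KPC850 gave a ratio of 98.2 (33.3 to 479) for KPC630 over KPC850. Mvb12b, a subunit of the ESCRT-I complex that sorts receptors to lysosomes, had 0.233 CPM in KPC850, against 45.1 in KPC630, 39.2 in KPC142, 32.8 in KPC469, 30.4 in KPC180 and 20.5 in KPC490, a ratio of 87.97 (34.1 to 325). Sorcs2, a sorting receptor for neurotrophins, had 0.233 CPM in KPC850, against 85.2 in KPC469, 21.9 in KPC142, 19.5 in KPC630, 11.8 in KPC180 and 7.32 in KPC490. Its ratio was 31.4 (11.96 to 117) to KPC490 and 50.8 without it. Zfp629, a zinc finger gene, had 0.3495 CPM in KPC850, against 28.8 in KPC469, 23.5 in KPC490, 18.1 in KPC180, 17.5 in KPC630 and 9.85 in KPC142, a ratio of 28.2 (12.7 to 77.9) to KPC142 and 50.2 without it. Peli2, a ubiquitin ligase of Toll-like receptor signalling, had 0.291 CPM in KPC850, against 15.1 in KPC469, 13.4 in KPC180, 12.7 in KPC142, 7.28 in KPC630 and 7.03 in KPC490, a ratio of 24.1 (10.1 to 75.6). None of these 5 genes overlapped another gene at 1 CPM or more.

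Tmem223, Gm3375, Krba1 and 9130019O22Rik also had 1 to 6 counts in KPC850, and other genes with so few counts are described further below. Tmem223 had 0.3495 CPM in KPC850, against 35.5 in KPC469, 24.2 in KPC630, 22.6 in KPC142, 13.1 in KPC490 and 12.999 in KPC180, a ratio of 37.2 (16.8 to 102). Gm3375, annotated as a processed pseudogene, had 0.175 CPM in KPC850, against 34.2 in KPC142, 26.8 in KPC469, 19.9 in KPC490, 11.1 in KPC180 and 8.82 in KPC630. The ratio was 50.5 (16.98 to 247), and as a near-copy of another gene its counts are uncertain. Krba1 had 0.3495 CPM in KPC850, against 13.7 in KPC630, 10.2 in KPC180, 10.05 in KPC490, 7.13 in KPC469 and 4.44 in KPC142, a ratio of 12.7 (5.57 to 35.8) to KPC142 and 20.4 without it. The gene 9130019O22Rik had 1 count in KPC850 and 64 to 236 counts in the others, or 0.0583 CPM in KPC850, against 3.84 to 12.9 in the others. Its ratio was 65.97 (11.4 to 2646) from the counts and 21.99 against the floor. Some of the genes below stand near each other in the order of tested genes, which gives no distance. Krba1 and Repin1 on chromosome 6 have 2 tested genes between them. On chromosome 7, 9130019O22Rik and Zfp629 have 7, and Col5a1 and Ppp1r26 on chromosome 2 have 0. Beside the 18 genes with fewer than 10 counts, the nearest genes with a median of at least 5 CPM over all 6 lines, KPC850 included, were taken. Of these 35 genes, 34 were not below by the rule, with log2 differences from -1.25 to 1.22 and a median of -0.12. KPC850 was the lowest line for 10 of these 34 (29.4%, against 14.7% of all genes tested) and the highest for 4. By chromosome, the share of tested genes lowest in KPC850 ran from 1.89% on chromosome 16 to 47.3% on chromosome 12. The 34 genes were not compared within chromosomes, so no conclusion is drawn from the 29.4%. Zfp775, beside Repin1, was at the lower end, with 3.38 CPM in KPC850, against 5.58 to 9.87 in the others.

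Signalling and transcription genes below included Ncoa1, a coactivator of nuclear receptors, with 0.699 CPM in KPC850, against 18.4 in KPC142, 14.6 in KPC490, 13.8 in KPC469, 7.97 in KPC630 and 5.77 in KPC180 and a ratio of 8.26 (4.51 to 16.5). Cyp26b1, which breaks down retinoic acid, had 0.3495 CPM in KPC850, against 49.8 in KPC469, 9.83 in KPC630, 6.97 in KPC490, 6.13 in KPC142 and 2.25 in KPC180. Its ratio was 6.43 (2.69 to 18.6) to KPC180 and 17.5 without that line. Npr2, the receptor of C-type natriuretic peptide, had 0.117 CPM in KPC850, against 16.2 in KPC180, 5.16 in KPC630, 2.64 in KPC142, 2.497 in KPC490 and 1.09 in KPC469. With 2 counts in KPC850, the ratio was 9.35 (2.27 to 82.5), and against the floor of 3 counts it was 6.23, or 14.3 without KPC469. Arc, an immediate early gene, had 0.583 CPM in KPC850, against 23.5 in KPC469, 7.87 in KPC142, 5.31 in KPC630, 4.12 in KPC490 and 2.37 in KPC180, a ratio of 4.07 (1.99 to 9.14) to KPC180 and 7.08 without it. Kctd17, an adaptor of cullin-3 ubiquitin ligases, had 0.524 CPM in KPC850, against 28.8 in KPC630, 22.5 in KPC469, 20.6 in KPC142, 5.102 in KPC180 and 4.94 in KPC490, a ratio of 9.41 (4.73 to 21.3).

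Genes of cell shape, adhesion and membrane potential were also among those below. Cdh6, a classical cadherin, had 2.62 CPM in KPC850, against 48.4 in KPC469, 46.98 in KPC630, 27.3 in KPC180, 21.3 in KPC490 and 17.8 in KPC142, a ratio of 6.804 (4.96 to 9.53). Pcdh7, the protocadherin that the study's title names, was not low: it had 131 CPM in KPC850, against 0.109 to 109 in the others. Nav2, a neuron navigator protein of the cytoskeleton, had 2.33 CPM in KPC850, against 89.97 in KPC469, 59.9 in KPC142, 36.99 in KPC490, 21.6 in KPC180 and 19.2 in KPC630, a ratio of 8.26 (5.95 to 11.8). Soga1 had 5.88 CPM in KPC850, against 87.3 in KPC180, 83.9 in KPC142, 41.3 in KPC630, 33.9 in KPC490 and 26.4 in KPC469, the highest level in KPC850 of the 27, at a ratio of 4.48 (3.61 to 5.61). Kcnf1, a modifying subunit of voltage-gated potassium channels, had 0.117 CPM in KPC850, against 24.6 in KPC469, 20.2 in KPC630, 9.72 in KPC180, 2.26 in KPC490 and 1.02 in KPC142, with 2 counts in KPC850. Its ratio was 8.76 (2.08 to 78.2) to KPC142, and against the floor it was 5.84, or 12.96 without KPC142. Ppp1r26, a regulator of protein phosphatase 1, had 0.117 CPM in KPC850, against 10.7 in KPC469, 6.92 in KPC180, 4.15 in KPC630, 2.497 in KPC490 and 1.62 in KPC142, with 2 counts in KPC850. Its ratio was 13.9 (3.497 to 121) to KPC142, and against the floor it was 9.28, or 14.3 without KPC142.

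Gkap1, Tmcc2 and Eml5 were below too. Gkap1, an anchoring protein of cGMP-dependent kinase, had 2.27 CPM in KPC850, against 12.8 to 34.6 in the others, a ratio of 5.61 (3.97 to 8.12). Tmcc2 had 0.175 CPM in KPC850, against 1.26 to 18.1 in the others, with 3 counts in KPC850 and a ratio of 7.22 (2.15 to 37.8). Eml5, a microtubule-associated protein, had 1.75 CPM in KPC850, against 7.21 to 19.9 in the others, a ratio of 4.12 (2.74 to 6.37). Its counts were fractional in all 6 lines, and it overlaps Zc3h14 on the other strand. Tjp3 overlaps Apba3 and Tmem184a overlaps Mafk on the other strand, and Nav2 overlaps Gm2788 on its own, so reads there may be shared. Myh10 and Kcnq1ot1 each had a fractional count in 1 line. The genes just inside were Col5a1 at a ratio of 4.05, Arc at 4.07 and Eml5 at 4.12. Just outside stood Ripor2 at 3.66, Atp8b2 at 3.58 and Palm3 at 3.49.

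Kcnq1ot1 was the 1 gene of the imprinted list among the 27. This long non-coding RNA is read from the paternal copy, antisense to Kcnq1, and in mouse keeps neighbouring genes of its cluster silent on that copy. It had 0.233 CPM in KPC850, against 30.3 in KPC180, 21.02 in KPC469, 12.6 in KPC142, 9.17 in KPC490 and 8.66 in KPC630, a ratio of 37.2 (14.2 to 138) for KPC630 over KPC850 from 4 counts. KPC850 was far below every other line. Kcnq1 itself had 1 count in KPC850 and 0 to 18 in the others. Among genes of the cluster, Slc22a18, an organic cation transporter, had 19.05 CPM in KPC850, against 7.81 in KPC142, 4.302 in KPC469, 2.66 in KPC630, 2.09 in KPC490 and 1.21 in KPC180. Phlda2, a growth-restraining gene of the placenta, had 15.7 CPM in KPC850, against 10.99 in KPC180, 8.25 in KPC490, 7.93 in KPC142, 6.16 in KPC630 and 1.58 in KPC469. KPC850 was the highest line for both, at 2.44-fold and 1.43-fold over the next. Nap1l4 was lowest in KPC850, with 119 CPM in KPC850, against 132 to 158 in the others, and Cd81 lay mid-range, with 111 CPM in KPC850, against 16.8 to 268 in the others. Cdkn1c, a cell cycle inhibitor of the same cluster, was low in all lines, with 0.408 CPM in KPC850, against 0.0607 to 1.201 in the others, and Ascl2 had 0 counts in every line. Tssc4, at the border of the cluster, had 32.4 CPM in KPC850, against 24.5 to 40.7 in the others. Whether the level of Kcnq1ot1 bears on these genes was not tested. Of 11 imprinted autosomal genes at 10 CPM, KPC850 was highest in 3 and lowest in 1.

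Expression of KPC850 also differed by chromosome. The median log2 difference from the median of the other 5 lines was lowest on chromosome 12, at -0.42 over 357 genes, of which KPC850 was the lowest line in 47.3%. Chromosome 8 followed, at -0.37 over 578 genes with 30.8% lowest. The highest medians were on chromosome 16, at 0.28 over 317 genes with KPC850 highest in 46.4%, and on chromosome 1, at 0.22 over 586 genes with 32.1% highest. Ncoa1, Kcnf1 and Eml5, all below, lie on chromosome 12, and Ces2g, on chromosome 8, was above. Chromosome 16 held 0 of the 45 genes. Ikbke and Ugt1a7c lie on chromosome 1, and the part of these shifts in the ratios of single genes was not tested. The copy number of the lines was not measured.

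**Figure D4:**
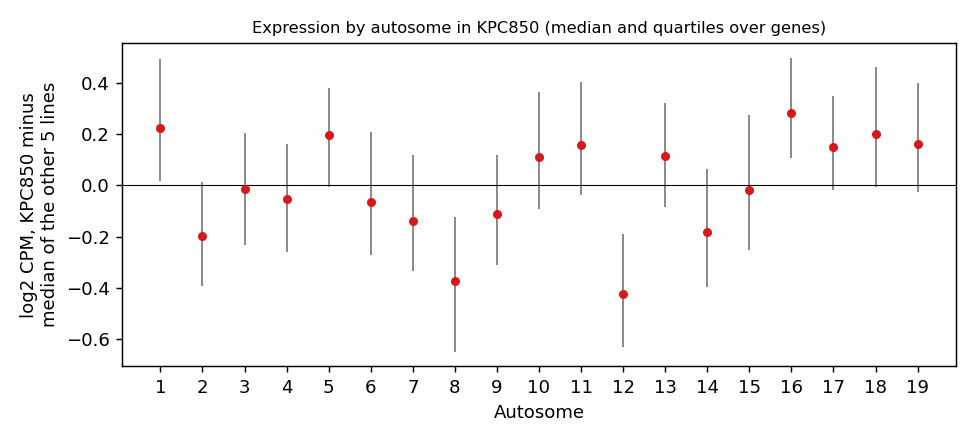
Log2 CPM in KPC850 minus the median of the other 5 lines for the tested genes of each autosome. Points are medians and bars run over the quartiles across genes. Chromosomes 12 and 8 lie lowest, at -0.42 and -0.37, and chromosome 16 highest, at 0.28.

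Across the 44 lists of cell programmes, most held few of the 45 genes. Of the 18 genes above 10 were on a list, and of the 27 below 4 were: Pttg1, Cdh6, Col5a1 and Kcnq1ot1. KPC850 was highest most often in the epithelial, xenobiotic and fatty acid lists. Among lists with at least 8 genes at 10 CPM, it was highest in 0 members of the proliferation, mesenchymal, matricellular, TGF-beta and patterning lists. Of 36 genes of RAS and MAPK output, KPC850 was highest in 1 and lowest in 8, with a list median of -0.31. KPC142 was lowest in 12 of the 36, KPC630 in 6, KPC180 in 5, KPC469 in 4 and KPC490 in 1. Dusp1, a phosphatase induced by MAPK signalling, had 10.9 CPM in KPC850, against 21.1 to 37.5 in the others, and Fos had 1.51 CPM in KPC850, against 1.74 to 11.7 in the others. For 29 drivers and suppressors of PDAC the list median was 0.07, and Gata6, a transcription factor of the classical programme, had 62.9 CPM in KPC850, against 19.2 to 86.8 in the others.

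**Figure D5:**
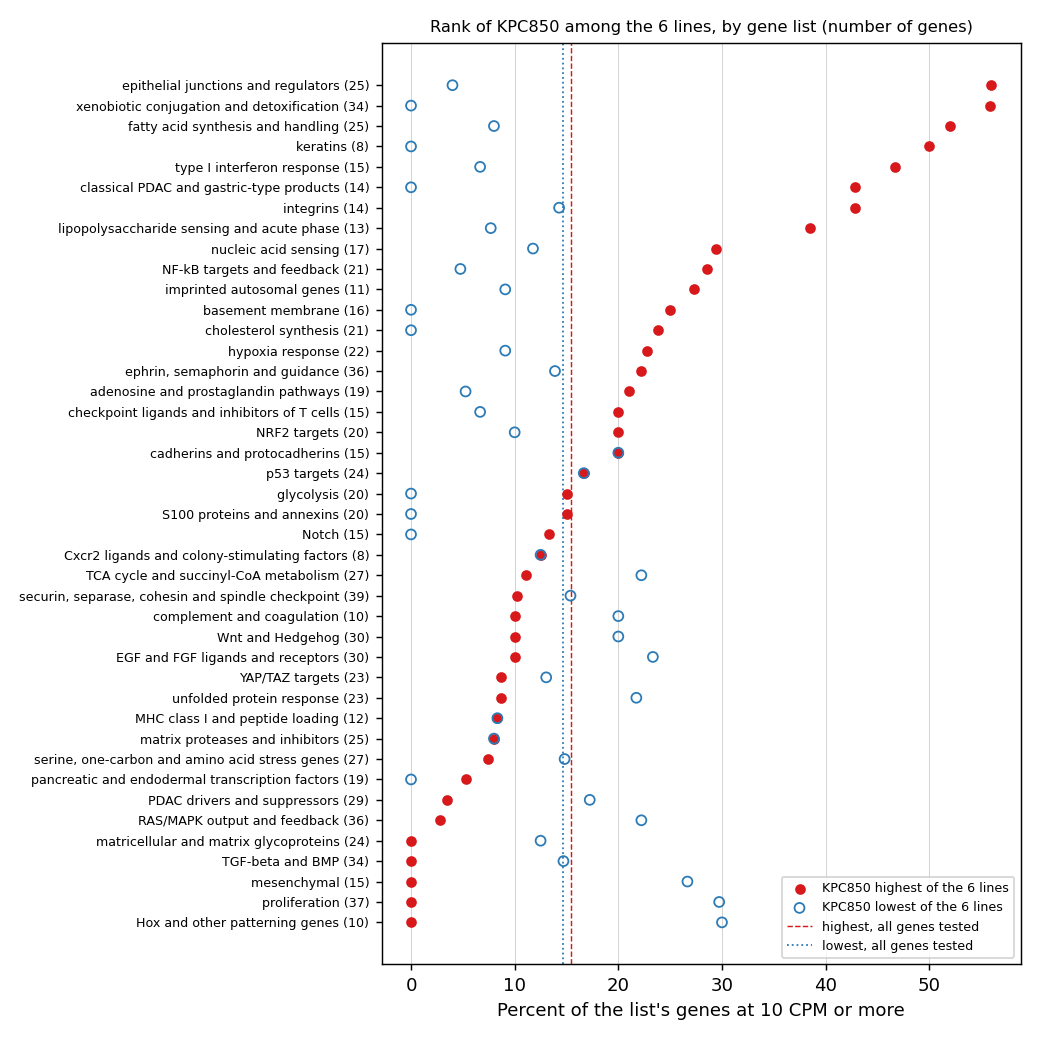
Percent of each list's genes at 10 CPM or more in which KPC850 was the highest (red) or the lowest (open blue) of the 6 lines, for lists with at least 8 such genes. Dashed and dotted lines mark the shares over all 9875 genes tested, 15.4% and 14.7%. The epithelial and xenobiotic lists lie farthest to the right for highest, and the patterning and proliferation lists for lowest.

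Some further genes set KPC850 apart together with 1 other line. Leaving KPC142 out added 11 genes above and 27 below, and leaving KPC180 out added 12 above and 13 below. KPC469 added 5 and 4, KPC490 added 4 and 12, and KPC630 added 10 and 9. Leaving a line out also ended calls: Arc, Ndst3, Tmcc2, 9130019O22Rik, Cyp26b1 and Ppp1r26, 6 of the 27 genes below, reached 10 CPM in KPC469 alone, so 25 were below without it. Npr2 reached 10 CPM in KPC180 alone. The genes named here were chosen after their values were seen. With KPC142, KPC850 lacked Adcy1, an adenylyl cyclase, at 0 CPM in KPC850 and 0.06005 in KPC142, against 11.4 to 13.8 in the remaining 4 lines. With KPC180 it shared a high level of Clic6, at 170 CPM in KPC850 and 443 in KPC180, against 1.38 to 17.9 in the others. Lgals2, a galectin, was also added without KPC180, but there KPC180 lay nearer the others. It had 1377 CPM in KPC850 and 401 in KPC180, against 78.6 to 253 in the others. With KPC490 it shared Anxa13, an annexin of intestinal and kidney epithelium, at 519 CPM in KPC850 and 939 in KPC490, against 5.82 to 80.2 in the others.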

How the data were processed

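Total RNA was extracted with TRIzol and libraries were made with a TruSeq stranded mRNA kit, per the labels' protocols. Trimmomatic 0.36, STAR 2.7.10b, RSEM 1.3.3 and the build GRCm39 are named in the submitters' processing notes. The annotation release and the strand setting of the counting are not given in the sources used here. What the authors deposited are expected counts per gene, for 6 libraries, 1 per line.

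Expected counts were rounded to whole numbers. TMM factors came from edgeR 4.0.16 (R 4.3.3) on the 11531 genes kept by filterByExpr, and CPM used the adjusted totals. Log2 values used a prior count of 2. Gene names and chromosomes came from GENCODE on GRCm38, which named 52029 of 56953 IDs, so no coordinate of the files' own build is given. Of 10234 genes at 10 CPM in any line, 315 on X, Y or mitochondrial DNA and 44 without a place were left out. The next line is the highest of the other 5 for genes above and the lowest for genes below. In each ratio for genes below, values under 3 counts were set to a floor of 3 where so stated. Ratios carry exact conditional binomial 95% intervals, which cover counting error only: reads without molecular identifiers are not independent molecules. With 1 library per line no test was run, and the spread between cultures of a line is unknown. The genes named are all 45 past 4-fold, the 3 nearest the threshold on each side, up to 3 list members with the largest difference, and the nearest expressed neighbours of genes under 10 counts. Other list members named were chosen after their values were seen. The genes and lists were chosen with earlier results of these data known. Other normalizations, filters, folds and line sets were tried, with DESeq2 1.42.0 size factors among them. The calculations used Python 3.11.15, pandas 2.3.3 and scipy 1.17.1 and were tested on simulated data.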

Additional observations from a re-analysis of the deposited data

How the results depend on the processing

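With no floor on level, 61 genes lay above and 47 below, in place of 18 and 27. At 2-fold there were 72 and 82, and at 8-fold 1 and 16. Requiring the lower bound of the counting interval to reach 4 left 8 and 16. Leaving out 1 other line at a time gave 22 to 30 above and 25 to 54 below, with 29 above and 54 below without KPC142, 30 above without KPC180 and 28 above without KPC630. The median of the cholesterol list ran from 0.27 to 0.78 in this way, at 0.76 without KPC180 and 0.78 without KPC490. The proliferation genes with KPC850 lowest numbered 11 to 17, with 17 without KPC469. The cause was not tested beyond the construction of each alternative. DESeq2 size factors kept the same 18 and 27 genes. Library totals kept 18 and 26, with Arc lost at a ratio of 3.99. A change of sign was scored only for lists whose median had an interval with the same sign at both ends. This 95% interval comes from the ranks of a list's genes, taken as if independent. It does not measure the spread between lines or cultures. No such list changed sign among the alternatives run. For the other lists a change of sign was not scored, so none can be excluded. The list of PDAC drivers and suppressors, with a median of 0.07 (-0.11 to 0.14), is an example. No paired analysis was possible because each line has 1 library. Rare transcripts are limited by depth: 3 counts are worth 0.175 CPM in KPC850.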
